A study of Mus musculus with 9 samples.

Results

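The 38 genes described here encode chromatin enzymes that have been linked to memory: histone deacetylases and acetyltransferases, histone methyltransferases and demethylases, DNA methyltransferases, TET dioxygenases and proteins that read DNA methylation. They were chosen by name, from a table of 24489 rows, and each has 1 row. RNA came from area CA1, a field of pyramidal neurons in the hippocampus that takes part in contextual memory, of mice described as C57BL/J6 and 9 to 12 weeks old. An adeno-associated virus, used to bring an shRNA into cells, was given to every mouse, and the 9 libraries form 3 groups of 3 biological replicates. Trained mice carried an shRNA against H2A.Z, a histone variant found at promoters and enhancers, and underwent contextual fear conditioning, the pairing of a chamber with a foot shock. Naive mice carried the same H2A.Z shRNA and were not trained. Control mice carried a scrambled shRNA. The labels leave unstated the promoter that drove the shRNA, the share of CA1 cells infected, the time between training and dissection, and whether control mice were trained.

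Histone acetylation opens chromatin and is added by acetyltransferases and removed by deacetylases, and in rodents inhibitors of deacetylases strengthen long-term memory. Polycomb repressive complex 2 places the silencing mark H3K27 methylation, H3K9 methyltransferases place another, and demethylases remove them or the active mark H3K4 methylation. DNA methyltransferases methylate cytosine in CpG dinucleotides, TET enzymes oxidise that mark, and methyl-CpG binding proteins recruit corepressors to it. Many of these proteins are present in neurons at a steady level and are regulated by location, cofactors and partners, which RNA levels do not show.

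Levels are in FPKM, the number of sequenced fragments of a gene divided by transcript length and by library size, so that levels of genes of different length can be set side by side. The 12327 genes that averaged 1 FPKM or more were tested with limma, a linear model fitted across all genes, on log2(FPKM + 1). A fold change on this scale understates the change of genes of low level. Of the 38 chromatin genes 36 passed the filter. Hdac7 is listed at 0 in every library, and Tet1 averaged 0.980 FPKM. The libraries held 12071 to 12457 genes at 1 FPKM or more. The 10 CA1 pyramidal markers were all present, with a summed level of 329 to 395 FPKM in trained mice, 309 to 353 FPKM in naive mice and 331 to 462 FPKM in control mice. Markers of dentate granule neurons, a neighbouring field, summed to 114 to 196 FPKM in trained mice, 160.1 to 211 FPKM in naive mice and 81.9 to 165 FPKM in control mice. The targeted gene H2afz averaged 26.1 ± 2.31 FPKM in trained mice, 26.98 ± 1.63 FPKM in naive mice and 27.1 ± 1.43 FPKM in control mice (SD, n = 3 each), and adjusted p from limma was 0.828 for trained against control and 0.977 for naive against control. H2afz RNA thus did not separate H2A.Z shRNA from control mice. H2afv, a further H2A.Z gene, was examined beside H2afz. Against control, 0 of the 2 genes had groups without overlap. In trained against naive, 1 of the 2 had all trained libraries below all naive libraries, as 9.16% of all genes did. The smallest limma adjusted p of the 2 there was 0.606. The groups are named here as labelled. In bulk tissue, fewer cells of a type and less RNA per cell cannot be told apart.

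Start sites of these genes were, by their median, about as rich in CpG as those of the genes tested, CpG being the dinucleotide that the DNA methylation enzymes among them act on. RefSeq promoters of GRCm38.p6, here the 250 bases before the start, were found for 32 of the 38 genes, at 43 starts. These include starts of Hdac7 and Tet1, which did not pass the filter, and a gene with several starts counts once for each. Entries for Hdac1, Hdac3, Hdac10, Kdm6b, Mbd1 and Mbd2 were not found. The 43 promoters held a median of 17 CpG dinucleotides and ranged between 0 and 51, against a median of 16 at the starts of the genes tested and 6 at all starts. Printed below are Ezh2 and Ezh1, the paralogous Polycomb enzymes whose group differences are described later, and Hdac9, whose start held no CpG at all. CpG is in capitals, and all 3 lie on the minus strand, at chr6:47595031-47595280, chr11:101226464-101226713 and chr12:34917096-34917345.
Ezh2: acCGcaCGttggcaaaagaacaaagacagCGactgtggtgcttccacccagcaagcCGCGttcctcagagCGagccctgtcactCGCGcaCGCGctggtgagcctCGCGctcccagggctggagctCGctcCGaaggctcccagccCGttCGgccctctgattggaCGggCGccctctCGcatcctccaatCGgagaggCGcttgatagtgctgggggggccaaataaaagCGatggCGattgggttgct
Ezh1: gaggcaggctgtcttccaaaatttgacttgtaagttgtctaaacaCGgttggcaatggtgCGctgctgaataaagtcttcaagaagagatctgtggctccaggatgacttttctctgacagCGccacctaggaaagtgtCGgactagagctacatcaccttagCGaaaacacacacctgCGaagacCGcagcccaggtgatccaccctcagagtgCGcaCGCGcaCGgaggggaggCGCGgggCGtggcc
Hdac9: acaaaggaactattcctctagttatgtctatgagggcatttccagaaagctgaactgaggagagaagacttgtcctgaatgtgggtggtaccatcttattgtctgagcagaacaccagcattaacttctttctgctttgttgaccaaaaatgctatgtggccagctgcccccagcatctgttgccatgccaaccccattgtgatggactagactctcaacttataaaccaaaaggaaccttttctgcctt
The Ezh2 promoter held 23 CpG, the Ezh1 promoter 14 and this Hdac9 promoter 0. A further Hdac9 start held 2.

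Motifs of factors that act in neurons or at CpG islands were searched on both strands of the same 250 bases. The full cAMP response element TGACGTCA, bound by CREB, occurred at 0 of the 43 starts, and at 2.64% of starts of genes tested and 1.55% of all starts. Its shorter core TGACG, which is contained in the full element, occurred at 8 starts, or 18.6%, against 26.6% of starts of genes tested and 17.8% of all starts. The E-box CACGTG occurred at 5 starts (11.6%), against 8.31% and 6.02%. The GC box GGGCGG, bound by Sp1, occurred at 27 starts (62.8%), against 57.8% and 32.7%. The share with a GC box was therefore near that of the genes tested and above that of all starts, and these are counts of letters, not of binding.

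The chromatin genes covered a wide range of levels, and their spread within groups was about that of all genes tested. Of the 38, 8 averaged 20 FPKM or more, 6 lay from 10 to 20 FPKM, 16 from 5 to 10 FPKM and 6 from 1 to 5 FPKM. The median mean level of the 36 genes tested was 7.98 FPKM, against 9.32 FPKM over all genes tested. The summed level of all 38 genes was 527 to 540.0 FPKM in trained mice, 532 to 539 FPKM in naive mice and 526 to 532 FPKM in control mice. For 32 of the 36 genes the highest library was less than 1.5 times the lowest, and the largest such ratio was 1.78, for Ezh2. The median coefficient of variation within groups was 7.32%, against 7.55% over all genes tested, and 19 of the 36 genes were below that value.

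**Figure D1:**
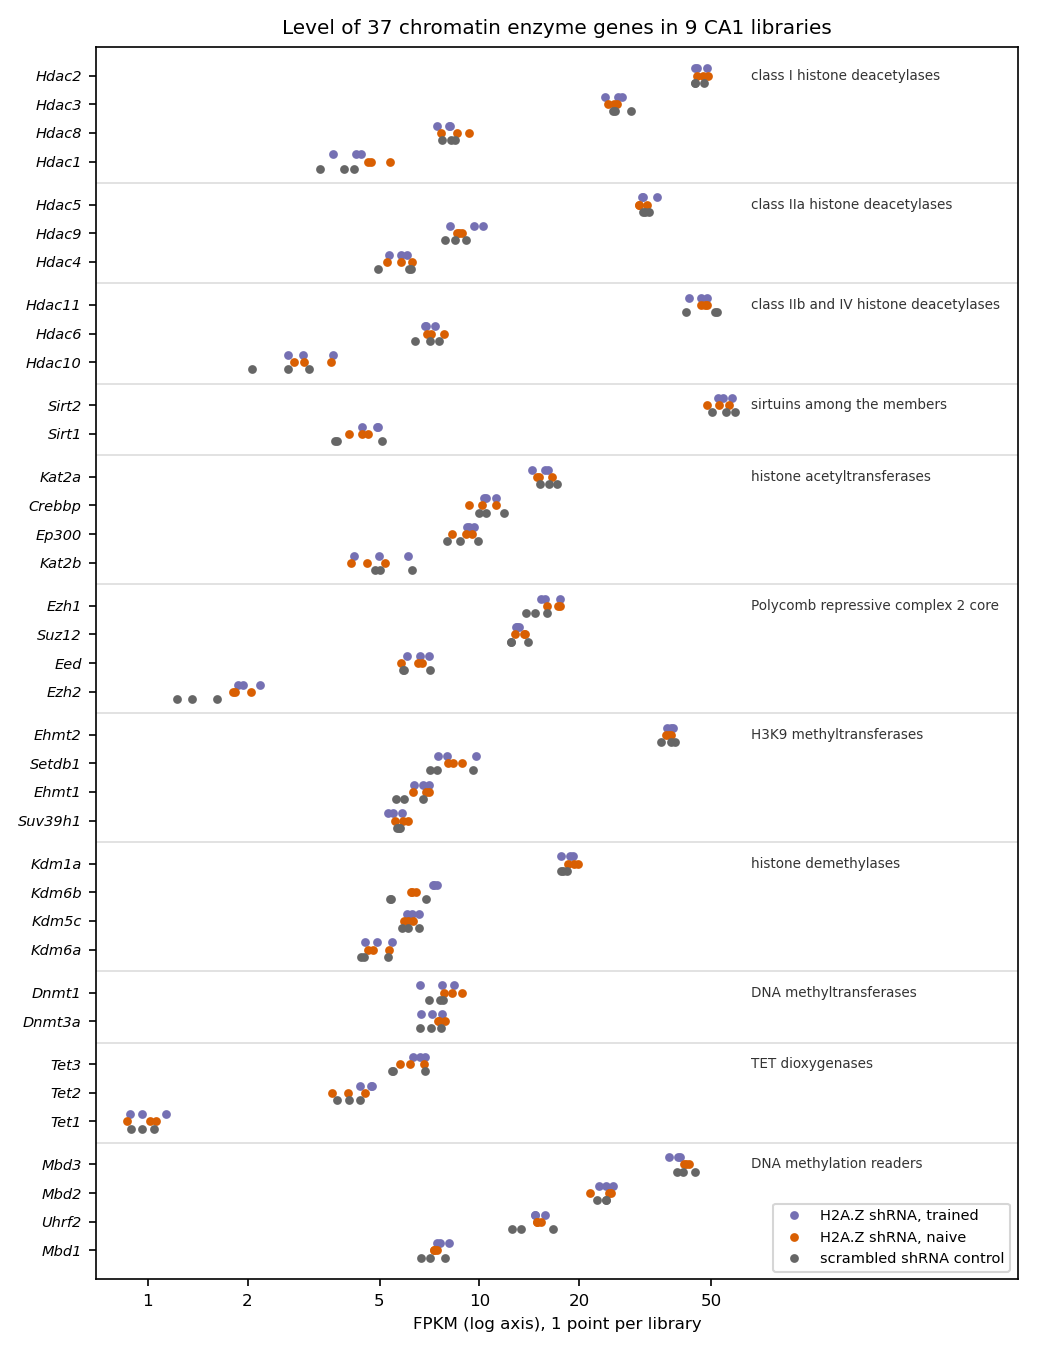
Level of 37 chromatin genes in FPKM (log axis) in each of 9 libraries, by role; each point is 1 library, coloured by group, and Hdac7, listed at 0, is not drawn. Most genes hold a narrow band over the 9 libraries, with Sirt2, Hdac11 and Hdac2 highest and Tet1 and Ezh2 lowest.

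Within the 11 roles, genes kept their order. Of 47 pairs of genes that share a role, 44 had the same order in all 9 libraries. The pairs with mixed order were Dnmt1 over Dnmt3a and Kdm6b over Kdm5c, each in 7 of 9 libraries, and Ehmt1 over Suv39h1, in 8 of 9. In trained mice the ratio of Kdm6b to Kdm5c was 1.14 to 1.20 and that of Ehmt1 to Suv39h1 1.20 to 1.23. Whether the levels within these pairs differ was not tested.

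No chromatin gene passed an adjusted p of 0.05 (limma, Benjamini-Hochberg over 12327 genes) in any comparison. Naive against control called 0.0% of all genes, trained against control 0.00811%, trained against naive 0.00811%, and both H2A.Z shRNA groups together against control 0.0%. The single gene called in both trained comparisons was Sgk1, an activity-induced kinase, with a log2 fold change of 0.76 ± 0.066 (SE) against control and adjusted p = 0.0177. No gene was called in trained against control without trained replicate 3, naive replicate 2 or control replicate 2, or in a fit with no filter. In trained against naive no gene was called without trained replicate 3. At an unadjusted p under 0.05, the chromatin genes stood near the background. In naive against control these were Hdac1, Ezh2 and Ezh1, all higher, or 3 of 36, where 9.81% of all genes were higher and 5.69% lower. In trained against control they were Ezh2 and Kdm6b, both higher, or 2 of 36, where 3.92% of all genes were higher and 3.8% lower. In trained against naive they were Kdm6b, higher, and Hdac1, lower, or 2 of 36 against 8.27% of all genes, of which 2.74% were higher and 5.53% lower. With both H2A.Z shRNA groups against control they were Ezh2, Kdm6b, Ezh1 and Hdac1, all higher, or 4 of 36, where 7.11% of all genes were higher and 5.26% lower. The comparisons with control share the same 3 control libraries.

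Counted by groups whose libraries do not overlap, 4 of 36 genes were higher in naive than in control mice, namely Hdac1, Ezh2, Kdm1a and Dnmt1, against 11.2% of all genes, and 0 were lower, against 8.23%. Ezh2, Kdm6b and Tet2 were so in trained against control mice, against 6.4% of all genes. In trained against naive mice Kdm6b and Mbd1 were higher (5.79% of all genes) and Hdac1 and Mbd3 lower (9.16%). Ezh2 was the only one of the 36 whose 6 H2A.Z shRNA libraries all lay above the 3 control libraries, a pattern that 2.94% of all genes showed. The median log2 fold change of the 36 genes was 0.028 in trained against control, where that of all genes was -0.0070. It was 0.039 in naive against control (all genes 0.016) and 0.0067 in trained against naive (all genes -0.020), the last with a range of -0.0038 to 0.0231 when each library was left out in turn. The estimate was above 0 for 27 of 36 genes in trained against control, 26 in naive against control and 19 in trained against naive, where 47.2%, 55.1% and 41.3% of all genes were above 0. The 95% intervals, read as folds of FPKM + 1, lay between 0.774 and 1.44 for every one of the 36 genes in trained against control, between 0.720 and 1.42 in naive against control, and between 0.745 and 1.32 in trained against naive.

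**Figure D2:**
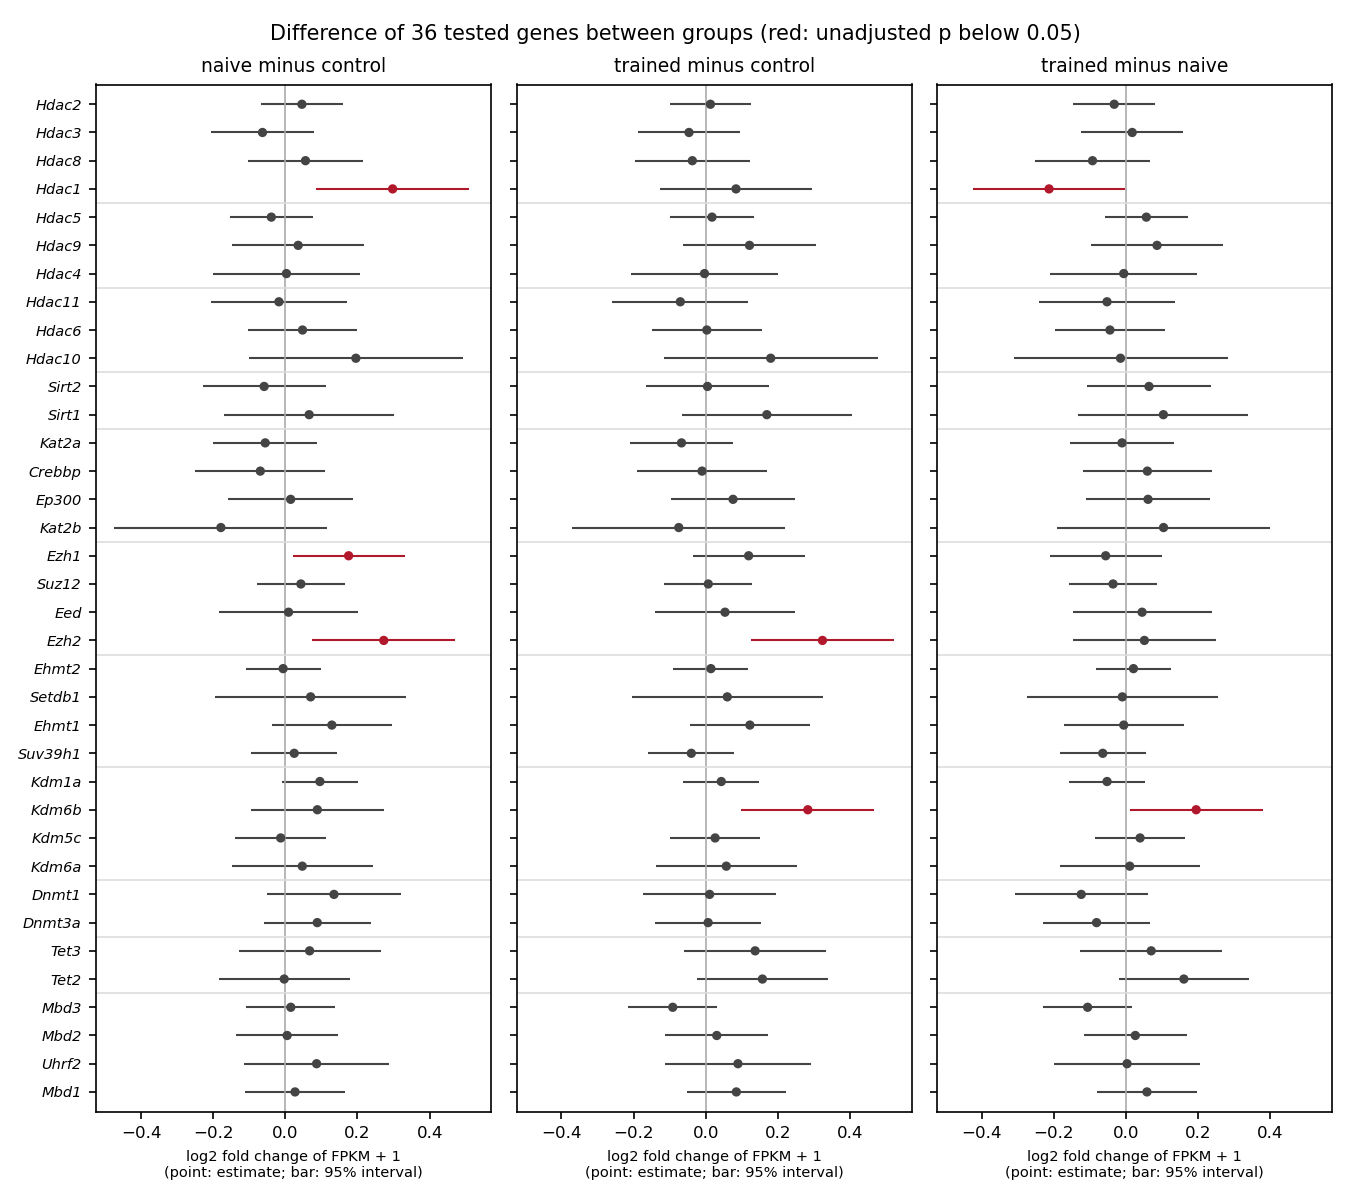
Log2 fold change of FPKM + 1 for 36 chromatin genes in naive minus control, trained minus control and trained minus naive; points are limma estimates and bars 95% intervals, each unadjusted for the number of genes. Red marks an unadjusted p below 0.05, which holds for 3, 2 and 2 genes, and no gene passed after adjustment.

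Class I deacetylases are zinc-dependent enzymes and include those of the Sin3, NuRD, CoREST and NCoR complexes. They were led by Hdac2, a known restraint on memory formation in the mouse hippocampus. Hdac2 had 48.4, 44.7 and 45.3 FPKM in trained mice, 47.4, 45.4 and 48.9 FPKM in naive mice, and 47.7, 44.6 and 44.8 FPKM in control mice. The groups overlapped, and the ratio of highest to lowest library was 1.10, the smallest of the 36 genes. Hdac3, the deacetylase of the NCoR complex, whose loss in CA1 strengthens long-term memory in mice, lay at 24.0 to 28.7 FPKM. Hdac8, an X-linked enzyme that also deacetylates cohesin, had 8.10, 8.14 and 7.45 FPKM in trained mice, 8.55, 9.28 and 7.67 FPKM in naive mice, and 7.71, 8.20 and 8.46 FPKM in control mice, with overlapping groups.

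Hdac1, the close paralog of Hdac2, was the lowest of the class. Hdac1 (chr4:129516104-129542713, GRCm38, minus strand) had 4.41, 4.24 and 3.62 FPKM in trained mice, 4.70, 4.61 and 5.38 FPKM in naive mice, and 4.19, 3.31 and 3.91 FPKM in control mice. All 3 naive libraries lay above every trained and every control library, while trained and control libraries overlapped. Over all genes, 11.2% had naive libraries above all control libraries and 9.16% had trained libraries below all naive libraries. The log2 fold change was 0.30 ± 0.093 (SE) in naive against control (limma adjusted p = 0.248), 0.084 ± 0.093 in trained against control (adjusted p = 0.800) and -0.21 ± 0.093 in trained against naive (adjusted p = 0.600). Hdac2 exceeded Hdac1 in every library, by 10.5 to 12.5 times in trained, 9.10 to 10.1 times in naive and 11.4 to 13.5 times in control mice. The summed level of the 4 class I genes was 83.8 ± 1.23 FPKM in trained, 85.9 ± 2.20 FPKM in naive and 84.2 ± 1.12 FPKM in control mice (SD, n = 3 each).

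Class IIa deacetylases shuttle between nucleus and cytoplasm with neuronal activity and bind MEF2 factors. Hdac5 led them, with 31.1, 34.4 and 30.9 FPKM in trained mice, 30.2, 32.0 and 30.3 FPKM in naive mice, and 31.1, 31.5 and 32.5 FPKM in control mice. The groups overlapped and the log2 fold change of trained against naive was 0.056 ± 0.051 (SE). Hdac9 lay at 7.90 to 10.3 FPKM and Hdac4, whose loss in the forebrain impairs memory in mice, at 4.95 to 6.26 FPKM. Hdac9 exceeded Hdac4 in all 9 libraries, by 1.29 to 1.84 times. Hdac7, known for its role in blood vessels, is listed at 0 throughout, although the 10 endothelial marker genes were all above 0 and summed to 82.6 to 93.5 FPKM in trained mice, 94.5 to 117 FPKM in naive mice and 79.6 to 106.1 FPKM in control mice.

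Hdac11, the single class IV enzyme, stood among the highest of all 38 genes, with 42.9, 48.5 and 46.5 FPKM in trained mice, 46.5, 48.7 and 47.8 FPKM in naive mice, and 42.0, 51.4 and 52.1 FPKM in control mice. Its control libraries spanned the range of both other groups. Hdac6, which deacetylates tubulin in the cytoplasm, lay at 6.40 to 7.80 FPKM. Hdac10, a deacetylase of polyamines, was low and had the widest relative spread of the 36 genes tested, with a coefficient of variation within groups of 16.4%. Hdac10 had 3.62, 2.93 and 2.64 FPKM in trained mice, 3.58, 2.97 and 2.76 FPKM in naive mice, and 3.06, 2.07 and 2.65 FPKM in control mice. Its groups overlapped, with a log2 fold change of 0.19 ± 0.11 (SE) with both H2A.Z shRNA groups against control and a limma adjusted p of 0.489.

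Of the sirtuins, the NAD-dependent deacetylases, Sirt2 had the highest level of all 38 genes. Sirt2 had 52.4, 57.9 and 54.4 FPKM in trained mice, 48.4, 52.8 and 56.4 FPKM in naive mice, and 50.2, 58.8 and 55.4 FPKM in control mice. The groups overlapped. Sirt2 is known as an oligodendrocyte enzyme, and the 10 oligodendrocyte markers summed to 1236 to 1658 FPKM in trained mice, 1028 to 1662 FPKM in naive mice and 1318 to 2058 FPKM in control mice, likewise with overlap. The library with the highest marker sum, control replicate 2 at 2058 FPKM, also had the highest Sirt2 level, and the library with the lowest sum, naive replicate 1 at 1028 FPKM, had the lowest, while the part of oligodendrocyte RNA in Sirt2 was not tested. Sirt1, which supports plasticity and memory in mice, had 4.96, 4.42 and 4.91 FPKM in trained mice, 4.04, 4.61 and 4.43 FPKM in naive mice, and 5.07, 3.67 and 3.73 FPKM in control mice. Control replicate 1 was the highest of the 9 Sirt1 values and the other control libraries the lowest, and the log2 fold change of trained against control was 0.17 ± 0.10 (SE; limma adjusted p = 0.689).

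Levels of all 4 acetyltransferases overlapped between groups. Kat2a, the GCN5 enzyme of the SAGA and ATAC complexes, led them with 15.8, 16.1 and 14.4 FPKM in trained mice, 14.9, 15.1 and 16.6 FPKM in naive mice, and 16.2, 17.1 and 15.2 FPKM in control mice. The groups overlapped. Crebbp and Ep300, the coactivators CBP and p300 that CREB recruits, lay at 9.28 to 11.8 and 7.97 to 9.91 FPKM, and Crebbp exceeded Ep300 in all 9 libraries by 1.07 to 1.31 times. Kat2b, the PCAF paralog of Kat2a, was the lowest and the most variable, with 4.18, 4.99 and 6.08 FPKM in trained mice, 4.11, 5.19 and 4.58 FPKM in naive mice, and 4.84, 6.27 and 5.03 FPKM in control mice. Its log2 fold change of naive against control was -0.18 ± 0.13 (SE), with limma adjusted p = 0.534 and an interval of 0.720 to 1.08 as a fold of FPKM + 1. Kat2b has an annotated processed pseudogene, Kat2b-ps, and whether reads were divided between such copies is not given.

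Polycomb repressive complex 2 includes Ezh2, the 1 gene of 36 whose H2A.Z shRNA libraries all lay above the control libraries. That pattern held for 2.94% of all genes, so 1 of 36 is near the share over all genes. The catalytic subunit of the complex is either Ezh2, best known from dividing cells, or Ezh1, the form of postmitotic cells. Suz12 and Eed are the scaffold. Ezh2 (chr6:47530139-47595341, minus strand), with the promoter shown above at a RefSeq start that lies inside this GENCODE span, had 1.94, 1.87 and 2.19 FPKM in trained mice, 1.83, 2.05 and 1.81 FPKM in naive mice, and 1.61, 1.23 and 1.36 FPKM in control mice. Every trained and naive library lay above every control library. Ezh2 averaged 2.001 ± 0.166 FPKM in trained mice, 1.90 ± 0.131 FPKM in naive mice and 1.401 ± 0.196 FPKM in control mice (SD, n = 3 each), a ratio of mean FPKM of 1.43 for trained over control and 1.35 for naive over control. On the log2(FPKM + 1) scale the fold change was 0.32 ± 0.087 (SE; limma adjusted p = 0.532) in trained against control, 0.27 ± 0.087 (adjusted p = 0.249) in naive against control and 0.051 ± 0.087 (adjusted p = 0.891) in trained against naive. With both H2A.Z shRNA groups against control it was 0.30 ± 0.075, with an unadjusted p of 0.00350 and an adjusted p of 0.294, so Ezh2 did not pass.

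Ezh1 (chr11:101191115-101226463, minus strand) had 17.5, 15.4 and 15.7 FPKM in trained mice, 17.2, 15.9 and 17.5 FPKM in naive mice, and 16.0, 14.7 and 13.8 FPKM in control mice. Control replicate 1 lay within the range of the other groups, and the other control libraries lay below all 6. The log2 fold change of Ezh1 was 0.12 ± 0.068 (SE; limma adjusted p = 0.688) in trained against control and 0.18 ± 0.068 (adjusted p = 0.298) in naive against control. Ezh1 exceeded Ezh2 in every library, by 7.20 to 9.00 times in trained, 7.79 to 9.65 times in naive and 9.92 to 12.0 times in control mice. The ratio contains the Ezh2 values that set control mice apart, so its lack of overlap with control is not a separate result. Suz12 at 12.5 to 14.0 FPKM and Eed at 5.81 to 7.12 FPKM had groups that overlapped, with log2 fold changes, with the H2A.Z shRNA groups pooled against control, of 0.025 ± 0.047 and 0.031 ± 0.073 (SE). Both were below 0 without control replicate 2 or control replicate 3.

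Markers of other cells also stood apart between H2A.Z shRNA and control mice. The 12 microglia markers summed to 282 to 407 FPKM in trained mice, 285 to 537 FPKM in naive mice and 224 to 276 FPKM in control mice, and the H2A.Z shRNA libraries all lay above the control libraries. The 10 cycling cell markers, among them Mki67 at 0.183 to 0.710 FPKM, were each under 1 FPKM on average and summed to 2.39 to 4.76 FPKM in trained mice, 2.63 to 4.93 FPKM in naive mice and 1.33 to 2.34 FPKM in control mice, again with no overlap. The 10 antigen presentation genes summed to 328 to 689 FPKM in trained mice, 277 to 1126 FPKM in naive mice and 139 to 218 FPKM in control mice. With both H2A.Z shRNA groups against control, 10 of the 12 microglia markers were higher at an unadjusted p under 0.05. So were all 10 antigen presentation genes, beside 7.11% of all genes. In naive against control 7 and 9 were higher (9.81% of all genes), and in trained against control 2 and 7 (3.92%). None was called by limma after adjustment, and the cycling markers were under the filter. Markers of neighbouring neurons differed too. All 10 dentate granule markers had estimates above 0 in naive against control, with a median log2 fold change of 0.79. At an unadjusted p under 0.05, 7 of 10 were higher there and 5 of 10 in the pooled comparison. In trained against control 1 of 10 was higher, with a median of 0.38. Of the 10 CA1 markers 6 were lower and 1 higher in naive against control, with a median of -0.32, where 5.69% of all genes were lower. In the pooled comparison 3 were lower (5.26% of all genes). In trained against control 0 of 10 passed that p, with a median of -0.087. The part of any of these cells in the Ezh2, Ezh1 and Hdac1 levels was not tested.

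**Figure D3:**
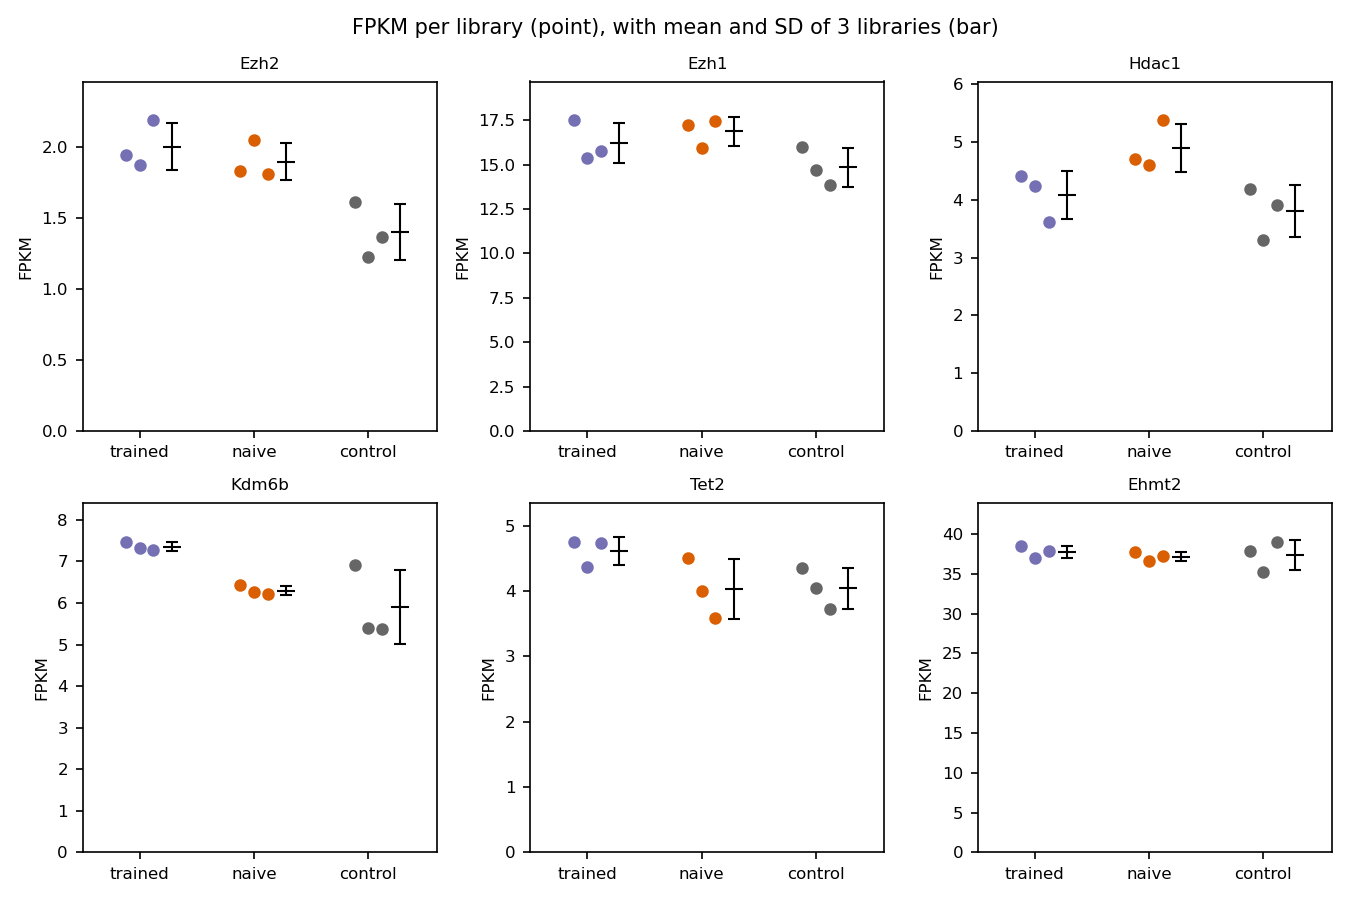
FPKM of Ezh2, Ezh1, Hdac1, Kdm6b, Tet2 and Ehmt2 in each library, from 0; coloured points are libraries and bars the mean with SD of 3. Ezh2 lies above all controls in both H2A.Z shRNA groups, Hdac1 is highest in naive mice, Kdm6b in trained mice, and Ehmt2 is level.

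Ehmt2, the H3K9 methyltransferase G9a, was among the steadiest of all genes. Ehmt2 had 38.4, 36.9 and 37.8 FPKM in trained mice, 37.7, 36.6 and 37.2 FPKM in naive mice, and 37.8, 35.2 and 39.0 FPKM in control mice. Its coefficient of variation within groups, 3.33%, was lower than that of all but 7.37% of the genes tested. Ehmt1, its partner in the G9a and GLP complex, had 7.07, 6.75 and 6.36 FPKM in trained mice, 7.07, 6.29 and 6.93 FPKM in naive mice, and 6.78, 5.61 and 5.94 FPKM in control mice. Control replicate 1 lay among the H2A.Z shRNA libraries and the other control libraries lay below them, and the log2 fold change with both H2A.Z shRNA groups pooled against control was 0.13 ± 0.063 (SE; limma adjusted p = 0.431). Suv39h1, an X-linked enzyme of H3K9 trimethylation, had 5.85, 5.50 and 5.29 FPKM in trained mice, 6.09, 5.87 and 5.56 FPKM in naive mice, and 5.64, 5.74 and 5.78 FPKM in control mice, with overlapping groups. Setdb1, which places the same mark, lay at 7.10 to 9.74 FPKM, with its highest values in trained replicate 3 and control replicate 1.

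Demethylases included a gene whose trained libraries lay above all others. Of all genes, 6.4% had trained libraries above all control libraries and 5.79% above all naive libraries. Kdm6b (chr11:69398508-69413675, minus strand), the H3K27 demethylase JMJD3, which is inducible in several cell types, had 7.47, 7.31 and 7.27 FPKM in trained mice, 6.43, 6.26 and 6.21 FPKM in naive mice, and 6.92, 5.402 and 5.37 FPKM in control mice. Every trained library lay above every naive and every control library, and naive and control libraries overlapped through control replicate 1. Kdm6b averaged 7.35 ± 0.105 FPKM in trained mice, 6.30 ± 0.115 FPKM in naive mice and 5.90 ± 0.888 FPKM in control mice (SD, n = 3 each). The log2 fold change was 0.28 ± 0.081 (SE) in trained against control, with limma adjusted p = 0.586 and an unadjusted p of 0.00722. It was 0.19 ± 0.081 in trained against naive (adjusted p = 0.591) and 0.089 ± 0.081 in naive against control (adjusted p = 0.627). An annotated antisense gene, Kdm6bos, lies within Kdm6b, and whether the counting used strand is not given.

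The Kdm6b result depends on control replicate 1. Without it, Kdm6b passed in trained against control, with a log2 fold change of 0.39 and limma adjusted p = 0.0332, and with both H2A.Z shRNA groups against control, with 0.29 and adjusted p = 0.0445. In those fits 0.187% and 0.292% of all genes were called. Over all alternatives its adjusted p was 0.0332 to 0.968 and 0.0445 to 0.754 in these comparisons. No chromatin gene passed without control replicate 3, where 0.0162% of all genes were called in trained against control and 0.0243% in naive against control and in the pooled comparison. The 10 activity-regulated genes, among them Arc, Fos and Sgk1, summed to 315 to 400.1 FPKM in trained mice, 191 to 249 FPKM in naive mice and 183 to 297 FPKM in control mice, with every trained library above all others. Control replicate 1 had the highest sum among control mice, 297 FPKM, against 183 and 196 FPKM in the other control libraries, as it had the highest Kdm6b level. Whether the activity of neurons accounts for the Kdm6b values was not tested.

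**Figure D4:**
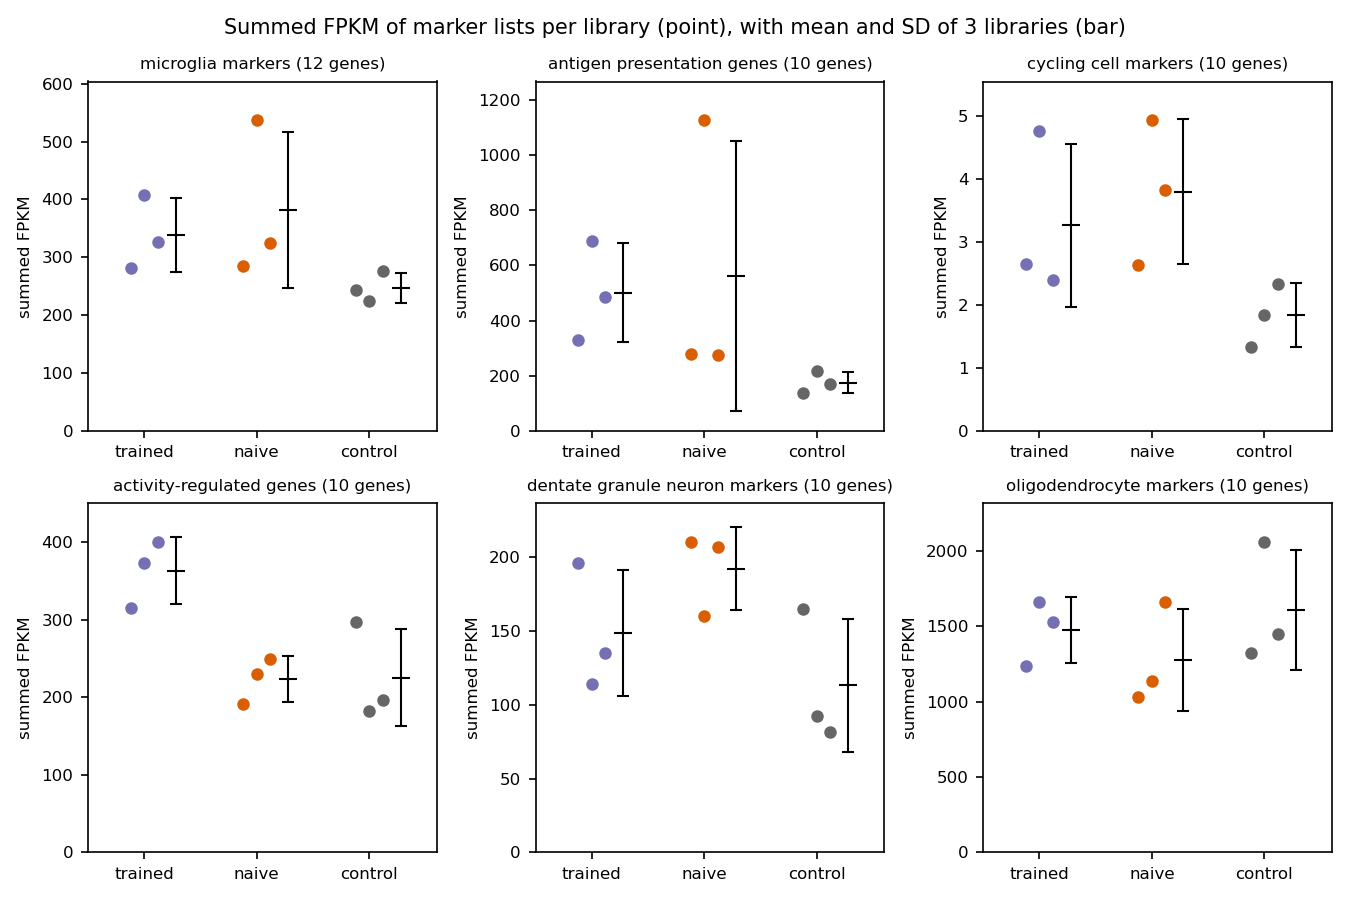
Summed FPKM of 6 gene lists in each library, from 0; coloured points are libraries and bars the mean with SD of 3. Microglia, antigen presentation and cycling lists lie above control in both H2A.Z shRNA groups, activity-regulated genes lie highest in trained mice with control replicate 1 the highest control, the naive and control libraries overlap in the dentate list through control replicate 1, and the groups overlap in the oligodendrocyte list.

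Kdm6a, the X-linked H3K27 demethylase UTX, lay at 4.40 to 5.45 FPKM with overlapping groups, and the ratio of Kdm6b to Kdm6a was 1.37 to 1.61 in trained, 1.203 to 1.344 in naive and 1.199 to 1.301 in control mice. Kdm5c, an X-linked H3K4 demethylase that causes intellectual disability when mutated in humans, lay at 5.83 to 6.56 FPKM. Both have Y-linked copies, Uty at 3.14 to 3.87 FPKM and Kdm5d at 3.63 to 4.57 FPKM, so reads shared by the copies could move between them. Kdm1a, the H3K4 demethylase LSD1 of the CoREST complex, was the highest of the role, with 19.1, 18.8 and 17.6 FPKM in trained mice, 19.9, 18.5 and 19.3 FPKM in naive mice, and 18.4, 17.6 and 17.8 FPKM in control mice. Its naive libraries lay above its control libraries, with a log2 fold change of 0.096 ± 0.046 (SE; limma adjusted p = 0.358), and trained libraries overlapped both.

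The DNA methyltransferases were near each other in level. Dnmt1, the maintenance enzyme that neurons retain, had 8.41, 7.70 and 6.61 FPKM in trained mice, 8.84, 7.84 and 8.26 FPKM in naive mice, and 7.59, 7.78 and 7.07 FPKM in control mice. Naive libraries lay above control libraries, at 0.13 ± 0.081 on the log2 scale (SE; limma adjusted p = 0.454), and the value of trained against naive was -0.12 ± 0.081 (adjusted p = 0.711). Dnmt3a, a de novo enzyme with a role in memory in mice, had 7.71, 7.17 and 6.66 FPKM in trained mice, 7.88, 7.56 and 7.51 FPKM in naive mice, and 7.66, 7.15 and 6.62 FPKM in control mice. Its groups overlapped, with -0.082 ± 0.065 in trained against naive. Dnmt1 exceeded Dnmt3a in 7 of 9 libraries. Dnmt3a has a processed pseudogene and an antisense gene in the annotation.

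TET dioxygenases, which oxidise 5-methylcytosine, were ordered Tet3, Tet2 and Tet1 in every library. Tet3 had 6.85, 6.61 and 6.33 FPKM in trained mice, 6.19, 5.75 and 6.79 FPKM in naive mice, and 6.85, 5.47 and 5.48 FPKM in control mice. Control replicate 1 and trained replicate 1 were the highest of the 9 and the other control libraries the lowest. Tet2 had 4.75, 4.37 and 4.73 FPKM in trained mice, 4.51, 4.01 and 3.59 FPKM in naive mice, and 4.35, 4.04 and 3.73 FPKM in control mice. All trained libraries of Tet2 lay above all control libraries and overlapped the naive ones, with a log2 fold change of 0.16 ± 0.080 (SE) against control (limma adjusted p = 0.671) and 0.16 ± 0.080 against naive (adjusted p = 0.621). Tet1, which has been tied to memory extinction in mice, lay at 0.868 to 1.14 FPKM and just under the filter. In a fit without the filter its log2 fold change was 0.019 ± 0.067 (SE) in trained against control, 0.011 ± 0.067 in naive against control and 0.0085 ± 0.067 in trained against naive.

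Readers of DNA methylation were led by Mbd3, a subunit of the NuRD complex that in mammals binds methylated CpG poorly. Mbd3 had 40.2, 39.8 and 37.4 FPKM in trained mice, 41.4, 42.1 and 43.0 FPKM in naive mice, and 39.3, 41.1 and 44.8 FPKM in control mice. All trained libraries lay below all naive libraries, while control libraries overlapped both, and the log2 fold change of trained against naive was -0.11 ± 0.054 (SE; limma adjusted p = 0.630). Mbd2, the methyl-CpG binding subunit that takes its place in NuRD, lay at 21.6 to 25.3 FPKM and Mbd1 at 6.67 to 8.08 FPKM. Mbd1 averaged 7.71 ± 0.328 FPKM in trained mice, 7.36 ± 0.0822 FPKM in naive mice and 7.22 ± 0.614 FPKM in control mice (SD, n = 3 each). Trained and naive mice did not overlap, but only narrowly. The lowest trained library had 7.457 FPKM and the highest naive library 7.454 FPKM. The log2 fold change of Mbd1 in trained against naive was 0.058 ± 0.0605 (SE; limma adjusted p = 0.817). Uhrf2, a reader of hydroxymethylcytosine, lay at 12.6 to 16.7 FPKM, with control replicate 1 the highest and the other control libraries the lowest of the 9.

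The role sums differed by at most 1.26 times between the highest and lowest library. The 4 Polycomb genes summed to 37.8 ± 0.509 FPKM in trained, 38.5 ± 0.360 FPKM in naive and 35.5 ± 2.80 FPKM in control mice. The 3 TET genes summed to 12.2 ± 0.467 FPKM in trained, 11.3 ± 0.495 FPKM in naive and 10.9 ± 1.15 FPKM in control mice. The 2 DNA methyltransferases summed to 14.8 ± 1.43 FPKM in trained, 16.0 ± 0.681 FPKM in naive and 14.6 ± 0.826 FPKM in control mice, and the 4 acetyltransferases to 40.5 ± 0.416, 39.4 ± 0.613 and 41.2 ± 1.96 FPKM in trained, naive and control mice (SD, n = 3 each). Over all 11 roles the SD was largest in trained mice for 2, in naive mice for 3 and in control mice for 6.

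A further 111 genes of the same pathways were examined, and limma called 0 of those that passed the filter. With both H2A.Z shRNA groups against control, 10 were higher and 0 lower at an unadjusted p under 0.05, where 7.11% of all genes were higher and 5.26% lower. Their median log2 fold change was 0.050, against 0.0057 over all genes. Of the 11 other DNA methylation genes tested, 3 were among the 10. Gadd45g, a stress and activity responsive gene tied to DNA demethylation, had 10.97, 11.1 and 10.6 FPKM in trained mice, 10.1, 11.8 and 12.3 FPKM in naive mice, and 8.88, 7.56 and 6.09 FPKM in control mice. All H2A.Z shRNA libraries lay above all control libraries, with a log2 fold change of 0.52 ± 0.099 (SE; adjusted p = 0.269). Its relative Gadd45b, which promotes neurogenesis in the adult mouse hippocampus, averaged 9.20 ± 0.702 FPKM in trained mice, 8.84 ± 1.72 FPKM in naive mice and 6.76 ± 1.31 FPKM in control mice (SD, n = 3 each; 0.37 ± 0.13 on the log2 scale, adjusted p = 0.382). Mbd4, a glycosylase of mismatched thymine, was at 0.13 ± 0.056 (adjusted p = 0.400).

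Of 21 corepressor genes that work with class I deacetylases, 3 were higher at an unadjusted p under 0.05 and 0 lower in the same pooled comparison, beside 7.11% and 5.26% of all genes. In naive against control 5 of the 21 were higher and 0 lower, beside 9.81% and 5.69% of all genes. Sin3a, the scaffold of the Sin3 complex, had a log2 fold change of 0.10 ± 0.036, Chd4, the NuRD remodeller, 0.12 ± 0.047, and Rcor2, a CoREST protein, 0.31 ± 0.13 (SE), with limma adjusted p of 0.382, 0.382 and 0.394. Among other Polycomb genes, Pcgf3 and Phc1, subunits of Polycomb repressive complex 1, had log2 fold changes of 0.14 ± 0.068 and -0.072 ± 0.042. Of 14 other demethylases, 2 were higher, the H3K4 demethylase Kdm5a at 0.13 ± 0.050 and Jmjd1c at 0.20 ± 0.081, and the H3K9 demethylase Kdm4c was at 0.079 ± 0.036. Of 22 other methyltransferases, 1 was higher, Ash1l at 0.12 ± 0.052, and Setd2, which trimethylates H3K36, and Kmt2b, an H3K4 enzyme, were at 0.10 ± 0.049 and 0.11 ± 0.072. None of the 10 other acetyltransferases or 5 other sirtuins was past that p. Their smallest p-values belonged to Kat6b at 0.13 ± 0.060, Kat5 at -0.11 ± 0.058 and Kat6a at 0.078 ± 0.043, and to Sirt3, Sirt4 and Sirt7 at -0.048 ± 0.044, -0.079 ± 0.077 and 0.042 ± 0.044.

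Control libraries stood apart from each other in the levels of the chromatin genes. Control replicate 1 was the highest of the 3 controls for 23 of 36 genes and the lowest for 9, against 32.8% and 44.0% of all genes tested. Its median difference from the other controls was 0.13 on the log2 scale for the chromatin genes and -0.028 for all genes. Control replicate 2 was the lowest of all 9 libraries for 16 of 36 genes, against 16.8% of all genes. The control libraries also differed in marker sums. Control replicate 1 had 165 FPKM of dentate granule markers, against 92.8 and 81.9 FPKM in control replicates 2 and 3, and 331 FPKM of CA1 markers, against 367 and 462 FPKM. The 10 choroid plexus markers summed to 798 FPKM in control replicate 3, against 40.0 and 144 FPKM in control replicates 1 and 2. The part of these cells in the differences between control libraries was not tested. Without control replicate 1, the unadjusted p was under 0.05 for 9 genes higher and 2 lower in trained against control (9.02% and 9.23% of all genes), and for 7 higher and 0 lower in naive against control (12.3% and 9.78%). Median log2 fold changes then were 0.060 in trained against control and 0.086 in naive against control, where those of all genes were -0.016 and 0.0094.

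Libraries also differed by transcript length. Among the 36 genes, 15 had a longest transcript of 4926 bases or more, the top of 4 equal classes of the genes tested. Genes of that class had a median deviation of 0.020 in control replicate 1 and -0.029 in control replicate 2 from the mean of 9 libraries, on the log2 scale. Genes of the class with the shortest transcripts had -0.061 and 0.022. The part of transcript length in the values of the chromatin genes was not tested.

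**Figure D5:**
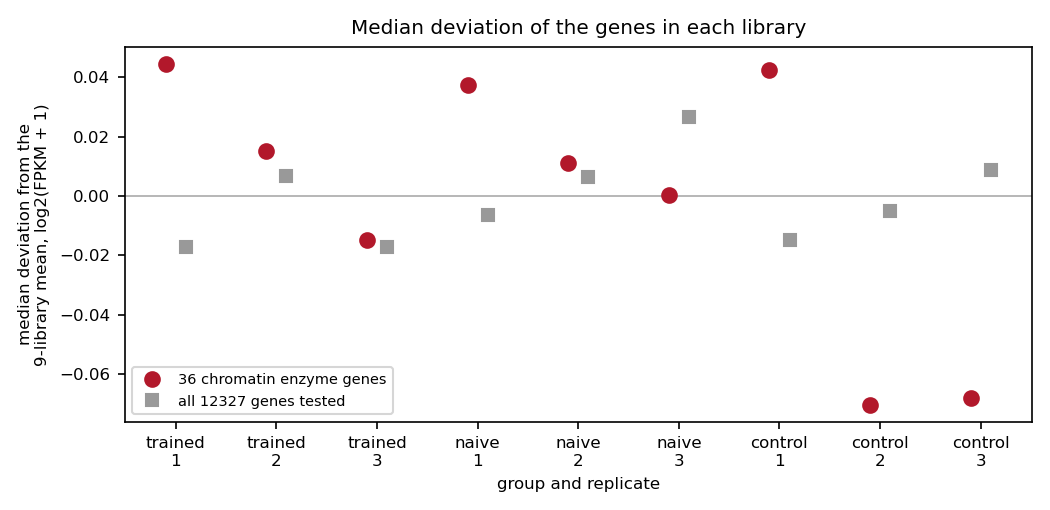
Median deviation of each library from the mean of the 9, on the log2(FPKM + 1) scale, for 36 chromatin genes (red) and all 12327 genes tested (grey). Control replicates 2 and 3 lie at -0.070 and -0.068 for the chromatin genes and control replicate 1 at 0.042, while all genes stay between -0.017 and 0.027.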

How the data were processed

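Poly-A RNA of CA1 (1 µg, RNA integrity above 7.9) was made into directional libraries and sequenced as 50 bp paired-end reads, per the labels' protocols. Per the submitters' processing notes, FastQC, TopHat 1.4.0, Cufflinks and Cuffdiff were used with genome build mm10. Which step wrote the table, with which annotation and strand setting, is not stated in the sources. The authors deposited FPKM values, 1 column per library. The table holds no counts, so the depth of each library is unknown and no counting interval is given.

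Of 24489 rows, 27 had names turned into dates and 5649 were at 0 in every library. The 12327 genes averaging at least 1 FPKM were tested on log2(FPKM + 1) with limma 3.58.1 in R 4.3.3: 1 mean per group over 9 libraries, moderated variances with a trend (6 residual and 2.72 prior degrees of freedom), two-sided, Benjamini-Hochberg adjusted over all genes tested, threshold 0.05. The scripts were tested on simulated data. Other steps used Python 3.11.15, pandas 2.3.3, numpy 2.4.6 and matplotlib 3.10.9. Gene coordinates are from GENCODE release M21 (GRCm38), and promoters from RefSeq.

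Groups come from the labels, which call the samples biological replicates and give no replicate number. The replicate numbers used here follow the order of the samples within each group and carry no other meaning. The members and lists were chosen with earlier results of these data known. Values in every library are given for members past the threshold, the 8 members with the smallest p in each comparison and the highest member of each of 11 roles. Of each pathway list up to 3 genes with the smallest p are named, and only Gadd45g has its values in every library printed. Alternatives were the scaling, the pseudocount, the filter, library weights, the groups in the fit and each library left out. A gene of the pathway lists is not reported here.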

Additional observations from a re-analysis of the deposited data

How the results depend on the processing

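No member passed the threshold under any alternative except Kdm6b without control replicate 1, at 0.39 in trained against control and 0.29 with both H2A.Z shRNA groups against control, on the log2 scale (limma adjusted p = 0.0332 and 0.0445). Leaving out each library in turn gave 0 to 1 members past the threshold in each of these comparisons, and a median log2 fold change of the members of 0.0125 to 0.0599 in trained against control, 0.0127 to 0.0855 in naive against control, -0.0038 to 0.0231 in trained against naive and 0.0119 to 0.080 in the pooled comparison. The sign of the estimate differed under at least 1 alternative for 16 of the 36 members in trained against control, 16 in naive against control, 12 in trained against naive and 17 in the pooled comparison, and of the estimates printed from the 36 members these were the pooled ones of Suz12 and Eed. The count of pairs in 1 order in every library was 44 to 45. Scaling by the median of ratios changed the split of all genes at an unadjusted p under 0.05, to 7.36% higher and 8.22% lower in naive against control and 4.09% and 4.02% in trained against naive, against 9.81% and 5.69%, and 2.74% and 5.53%, as deposited. The number of members above 0 was then 21 in naive against control and 24 in trained against naive, with a median of 0.026 in the second, against 26, 19 and 0.0067 as deposited. A fit of only the groups compared was not run for both H2A.Z shRNA groups against control, which uses all groups. No paired analysis was possible because the labels give no replicate numbers. With 3 libraries per group and no counts, the precision rests on the spread between libraries alone.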
